A study of Homo sapiens with 14 samples.

Results

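The 10 genes STXBP6, SAMD11, TRIL, LARGE2, BTN1A1, PLBD1, RCSD1, HPGDS, HTRA1 and GALNT16 were selected on their measured values, as genes with large changes under cobalt chloride (CoCl2) in these same libraries. They are 10 of the 19923 genes counted, and all 10 passed the low-count filter in both batches, though HPGDS and STXBP6 had few counts in batch 2. RNA sequencing was carried out on SK-N-BE2, an established MYCN-amplified neuroblastoma cell line, in 14 libraries forming 7 groups of 2 replicates. Batch 1 held cells of WT genotype given H2O, 10 µM CoCl2 or 50 µM CoCl2. Batch 2 held untreated WT cells and untreated cells labelled TET2KO #1, TET2KO #2 and TET2KO #3, here TET2KO_1, TET2KO_2 and TET2KO_3. How the knockouts were made, whether each number is a clone, and whether replicates were separate cultures is not given in the labels. The p-values therefore measure the spread between these libraries, which may be technical. Because CoCl2 chose the genes, their changes under CoCl2 are given as a description, with no p-value. The stated rule of choice used changes under CoCl2 and no group of batch 2, so tests are given there. The genes were chosen with earlier results of these data known, so those tests may not be wholly independent of the choice.

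Cobalt ions interfere with the oxygen-dependent prolyl hydroxylases that mark hypoxia-inducible factors for degradation, so CoCl2 is widely used as a chemical mimic of hypoxia. TET2 belongs to the same broad class of iron- and 2-oxoglutarate-dependent dioxygenases and oxidises 5-methylcytosine in DNA. The 10 genes are not one pathway. They encode a regulator of vesicle fusion (STXBP6), a nuclear protein (SAMD11), a Toll-like receptor accessory protein (TRIL), a matrix protease (HTRA1), Golgi glycosyltransferases (LARGE2, GALNT16), lipid enzymes (HPGDS, PLBD1), a membrane protein of milk fat secretion (BTN1A1) and an actin capping protein partner (RCSD1).

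Promoter sequence was available for 9 of the 10 genes in the RefSeq table of GRCh38.p14, as the 250 bases before each annotated start. LARGE2 had no entry. Of these, 4 are shown because they cover both directions of change and the span from CpG-poor to CpG-rich. SAMD11 and HTRA1 were higher under CoCl2, and TRIL and BTN1A1 were lower. Capitals mark matches on either strand to the core letters of the hypoxia response element (ACGTG or GCGTG), the metal response element (TGCACNC or TGCGCNC) or the antioxidant response element (TGACNNNGC). The SAMD11 window is chr1:925481-925730 on the plus strand, HTRA1 is chr10:122461303-122461552 on the plus strand, TRIL is chr7:28958331-28958580 on the minus strand and BTN1A1 is chr6:26500053-26500302 on the plus strand.
SAMD11: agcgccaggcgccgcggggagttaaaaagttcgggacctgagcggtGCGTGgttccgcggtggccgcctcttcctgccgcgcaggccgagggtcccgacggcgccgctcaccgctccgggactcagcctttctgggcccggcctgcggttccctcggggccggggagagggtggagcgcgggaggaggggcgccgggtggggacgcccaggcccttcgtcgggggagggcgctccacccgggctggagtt
HTRA1: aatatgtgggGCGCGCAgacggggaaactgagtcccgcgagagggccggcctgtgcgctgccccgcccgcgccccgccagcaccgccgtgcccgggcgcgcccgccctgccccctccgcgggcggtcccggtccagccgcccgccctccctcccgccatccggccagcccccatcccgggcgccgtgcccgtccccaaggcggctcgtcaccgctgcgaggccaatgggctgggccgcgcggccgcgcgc
TRIL: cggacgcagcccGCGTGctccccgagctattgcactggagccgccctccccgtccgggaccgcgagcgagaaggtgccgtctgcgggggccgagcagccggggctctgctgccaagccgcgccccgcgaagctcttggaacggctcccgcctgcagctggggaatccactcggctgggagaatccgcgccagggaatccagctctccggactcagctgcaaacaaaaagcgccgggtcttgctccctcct
BTN1A1: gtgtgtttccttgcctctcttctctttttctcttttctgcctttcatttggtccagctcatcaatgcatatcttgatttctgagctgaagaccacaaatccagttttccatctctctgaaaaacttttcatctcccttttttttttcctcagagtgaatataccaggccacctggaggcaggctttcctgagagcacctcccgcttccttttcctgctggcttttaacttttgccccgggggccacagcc
The SAMD11 and TRIL windows each held 1 hypoxia response element core, HTRA1 held 1 metal response element core, and BTN1A1 held none of the motifs searched. A match to letters is a description and not a site of binding. Over the 35116 promoters of the table, 43.2% held a hypoxia response element core and 24.8% a metal response element core. Among the 9 genes with sequence, 3 had the hypoxia core at an annotated start (SAMD11, TRIL and the second of the 3 starts of STXBP6). The metal core was found for 3 genes (HTRA1, GALNT16 with 2 matches, and the first start of STXBP6). The antioxidant core, present in 10.9% of promoters, was found for HPGDS alone, and the E-box CACGTG, which contains the hypoxia core and was present in 6.3% of promoters, for none. Of the genes higher under CoCl2, HTRA1 had 39 CpG dinucleotides in its window, GALNT16 34, SAMD11 32 and STXBP6 25, 8 and 1 at its 3 starts, against a median of 11 over all promoters. Of the genes that were lower, BTN1A1 had 2, HPGDS 4, RCSD1 11, PLBD1 13 and TRIL 27, and no difference between the directions was tested. The RefSeq starts are not always those of the genes as counted. The windows of SAMD11, HTRA1 and GALNT16 lie inside the counted gene, and that of GALNT16 covers 194 of its exon bases. The first and second windows of STXBP6 cover 150 and 44 exon bases, that of RCSD1 139 and that of HPGDS 40.

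Sequencing depth ran from 31214128 to 39540111 counts in the batch 1 libraries. In batch 2 it ran from 52095024 to 59263320 counts, mostly of reads and not of read pairs. Levels below are CPM, counts scaled to TMM-adjusted library size within a batch, and values after ± are the SD of n = 2 libraries. A fold change is given on the log2 scale with a standard error (SE). edgeR does not print this SE, which was worked back from the fold change and the quasi-likelihood F statistic. For the 10 genes under CoCl2 the SE thus carries the same information as an F-test. It is a description there and no test of a change that chose the genes. WT libraries held TET2 mRNA at 67.8 ± 4.30 CPM. TET2KO_1 held 78.5 ± 2.71 CPM, TET2KO_2 89.2 ± 2.67 CPM and TET2KO_3 71.8 ± 5.08 CPM. The mRNA level was thus not lower in the libraries labelled TET2KO, and it does not check those labels. Of 10 adrenergic neuroblastoma markers, 9 had a mean of at least 1 CPM in every group.

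Under CoCl2, 4 of the 10 genes were higher at 50 µM than in H2O (STXBP6, SAMD11, HTRA1 and GALNT16) and 6 were lower (LARGE2, BTN1A1, TRIL, PLBD1, RCSD1 and HPGDS). Among all 13636 genes tested, 22.7% were called at 10 µM and 61.4% at 50 µM, at an adjusted p under 0.05. The comparisons at 10 and 50 µM share the H2O libraries, so their values are given side by side. In RNA from bulk cultures, fewer cells of a kind and less RNA per cell cannot be told apart.

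**Figure D1:**
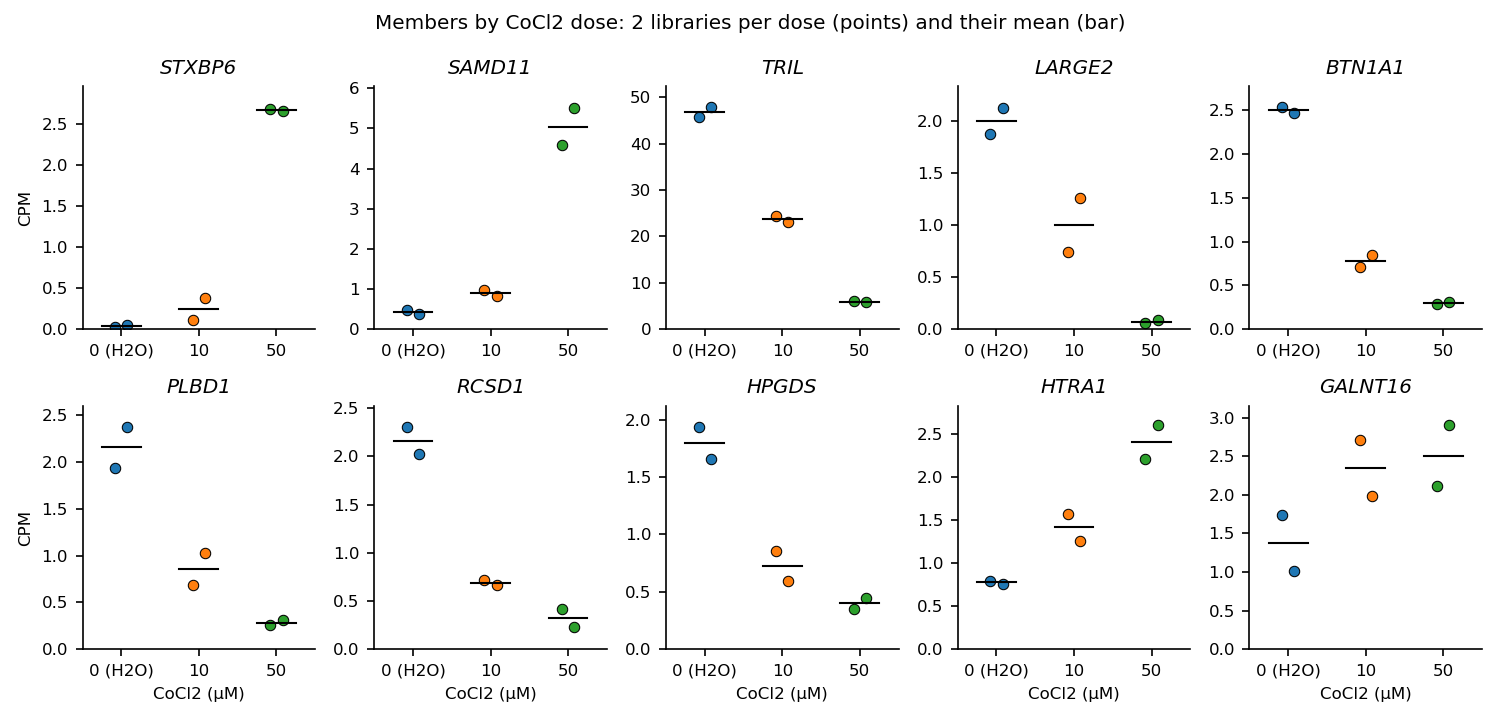
Level of each gene in CPM (linear axis from 0, a scale of its own in each panel) against CoCl2 dose in µM, with 1 point per library and a bar at the mean of the 2 libraries. STXBP6, SAMD11 and HTRA1 step upward with dose, GALNT16 overlaps between the doses, and the other 6 genes step downward.

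STXBP6 (amisyn; chromosome 14, 24809656 to 25050297, minus strand) binds syntaxin and restrains assembly of the SNARE complex that fuses secretory vesicles with the plasma membrane. Its counts were 1 and 2 in the H2O libraries, 4 and 15 at 10 µM, and 84 and 95 at 50 µM. It was thus close to undetected in H2O and passed the low-count filter of batch 1 only through the 50 µM libraries. Its rank of 2 by size of log2 change at 50 µM over all genes tested restates its choice for a large change. The counts corresponded to 0.0255 and 0.0504 CPM in H2O, 0.114 and 0.386 CPM at 10 µM, and 2.69 and 2.66 CPM at 50 µM. The ratio of summed counts, scaled by library size, was 70.2 at 50 µM, with a 95% exact counting interval of 23.6 to 344. At 10 µM it was 6.75 (1.99 to 35.6). That value rests largely on 1 library, since the log2 fold change of 2.65 at 10 µM became 1.5 without the second 10 µM library and 3.23 without the first. Such intervals cover counting error only and not the spread between replicates, and the wide upper bounds follow from the 3 counts in H2O. They are no test of a change that chose the gene.

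SAMD11 (chromosome 1, 923928 to 944581, plus strand) encodes a nuclear sterile alpha motif protein known from photoreceptors. It had 19 and 15 counts in H2O, 34 and 32 at 10 µM, and 143 and 197 at 50 µM. In CPM this was 0.432 ± 0.0758, 0.896 ± 0.103 and 5.05 ± 0.662. The log2 fold change was 1.04 (SE 0.31) at 10 µM and 3.55 (SE 0.21) at 50 µM, so most of its difference lay between the doses. SAMD11 shares 379 of its 4173 exon bases with NOC2L, which is read from the other strand. Because strand was ignored in counting, reads of the shared bases cannot be assigned to either gene. NOC2L was 106 CPM in H2O and 111 CPM at 50 µM.

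HTRA1 (chromosome 10, 122458551 to 122514907, plus strand) encodes a secreted serine protease that cleaves matrix proteins and is known to dampen TGF-beta signalling. It had 0.792 and 0.756 CPM in H2O, 1.57 and 1.26 CPM at 10 µM, and 2.21 and 2.6 CPM at 50 µM. Each step was upward, with a log2 fold change of 0.86 (SE 0.24) at 10 µM and 1.64 (SE 0.22) at 50 µM. An antisense gene of the GENCODE 29 annotation covers 159 of its 2250 exon bases. The summed level of 12 mesenchymal markers was 1592 to 1600 CPM in H2O, 1618 to 1619 at 10 µM and 2033 to 2050 CPM at 50 µM, with COL1A2 at 0 in H2O and at 10 µM. A list of 6 endothelial markers went the other way from HTRA1. Its summed level was 1.71 to 2.12 CPM in H2O, 1.11 to 1.54 at 10 µM and 1.01 to 1.06 at 50 µM. The part of either list in the HTRA1 levels was not tested.

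GALNT16 (chromosome 14, 69259277 to 69357033, plus strand) is one of the Golgi enzymes that add the first sugar of mucin-type O-glycans. Its levels were 1.74 and 1.01 CPM in H2O, 2.71 and 1.98 CPM at 10 µM, and 2.11 and 2.91 CPM at 50 µM. The libraries of the 2 doses overlapped, and the log2 difference between the doses was 0.13 (SE 0.17). It became -0.09 without the second 10 µM library and -0.14 without the second 50 µM library. GALNT16 had the smallest change of the 10 genes, with a log2 fold change of 0.89 (SE 0.19) at 50 µM, which ranked 835 by size among the genes tested.

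LARGE2 (chromosome 11, 45921621 to 45929096, plus strand) extends the matriglycan chain on alpha-dystroglycan that binds laminin. Its counts were 73 and 84 in H2O, 26 and 49 at 10 µM, and 2 and 3 at 50 µM. In CPM it was 1.87 and 2.12, then 0.740 and 1.26, then 0.0640 and 0.0840. The difference was the deepest decrease of the 10. Its rank of 3 by size of log2 change over all genes tested restates the choice of the gene for a large change. H2O had 26.7 times the 50 µM level (95% counting interval 11.2 to 83.3). At 10 µM the ratio was only 1.97 (1.48 to 2.62). These intervals cover counting error only and not the spread between replicates, and they are no test of a change that chose the gene.

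TRIL (chromosome 7, 28953358 to 28958330, minus strand) is a leucine-rich repeat protein that assists signalling by Toll-like receptors 3 and 4. It was the most abundant of the 10 and therefore the most precisely measured, with 1787 and 1896 counts in H2O, 861 and 903 at 10 µM, and 191 and 208 at 50 µM. The levels were 46.7 ± 1.52, 23.9 ± 0.911 and 5.97 ± 0.207 CPM. The log2 fold change was -0.97 (SE 0.04) at 10 µM and -2.97 (SE 0.06) at 50 µM. A long noncoding RNA gene on the other strand covers 192 of its 4973 exon bases in GENCODE 29.

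BTN1A1 (chromosome 6, 26501221 to 26510422, plus strand) encodes butyrophilin, an immunoglobulin superfamily protein of the milk fat globule membrane. Its levels were 2.53 and 2.47 CPM in H2O, 0.712 and 0.849 CPM at 10 µM, and 0.288 and 0.308 CPM at 50 µM. Of its log2 difference at 50 µM, 54.7% was already present at 10 µM. Of 6 epithelial markers, KRT5 and the milk protein gene CSN2 were at 0 in the H2O and 10 µM libraries, and the 6 summed to 2.35 to 3.08 CPM in H2O and 2.49 to 2.53 CPM at 50 µM. RCSD1 (CapZIP; chromosome 1, 167630093 to 167708696, plus strand) binds the actin capping protein CapZ and is phosphorylated by stress-activated kinases. It had 2.30 and 2.02 CPM in H2O, 0.712 and 0.669 CPM at 10 µM, and 0.416 and 0.224 CPM at 50 µM. Both genes had a log2 fold change near the same size at 10 µM, -1.67 (SE 0.21) for BTN1A1 and -1.64 (SE 0.23) for RCSD1.

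PLBD1 (chromosome 12, 14503661 to 14567883, minus strand) encodes a phospholipase B-like hydrolase found in granulocytes. It had 1.94 and 2.37 CPM in H2O, 0.684 and 1.03 CPM at 10 µM, and 0.256 and 0.308 CPM at 50 µM. HPGDS (chromosome 4, 94298535 to 94342876, minus strand) is the hematopoietic prostaglandin D synthase, which converts prostaglandin H2 to prostaglandin D2. Its levels were 1.94 and 1.66 CPM in H2O, 0.854 and 0.592 CPM at 10 µM, and 0.352 and 0.448 CPM at 50 µM. HPGDS had the smallest difference of the 6, with a log2 fold change of -1.33 (SE 0.23) at 10 µM and -2.15 (SE 0.28) at 50 µM. Of 10 blood and mast cell markers, 6 were at 0 in both H2O libraries. Their summed level over 10 genes was 5.24 to 5.52 CPM in H2O, 8.0 to 8.08 CPM at 10 µM and 19.1 to 19.3 CPM at 50 µM, with 1 gene of the 10 at a mean of 1 CPM or more in each group. The markers PTPRC, MS4A1, ITGAM and TPSAB1 were at 0 in the H2O and 10 µM libraries. At 50 µM 2 markers, MS4A1 and ITGAM, were at 0. The list's sum was highest where HPGDS, PLBD1 and RCSD1 were lowest, and its part in their levels was not tested.

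How much of the change was present at the lower dose is given next for each gene. The log2 change at 10 µM as a share of that at 50 µM was 20.8% for LARGE2, 29.4% for SAMD11 and 32.7% for TRIL, whose change lay mainly between 10 and 50 µM. It was 44.1% for STXBP6, 45.2% for PLBD1, 52.3% for HTRA1 and 54.7% for BTN1A1. The highest shares were 59.3% for RCSD1, 61.7% for HPGDS and 85.8% for GALNT16. These shares moved with single libraries. With each batch 1 library left out in turn, the share of STXBP6 ran from 24.9% to 53.8%, that of LARGE2 from 14.1% to 30.5%, that of HPGDS from 49.9% to 74.4% and that of GALNT16 from 59.9% to 122.3%. That of TRIL stayed between 31.3% and 33.9%. A difference between genes in this share was not tested.

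**Figure D2:**
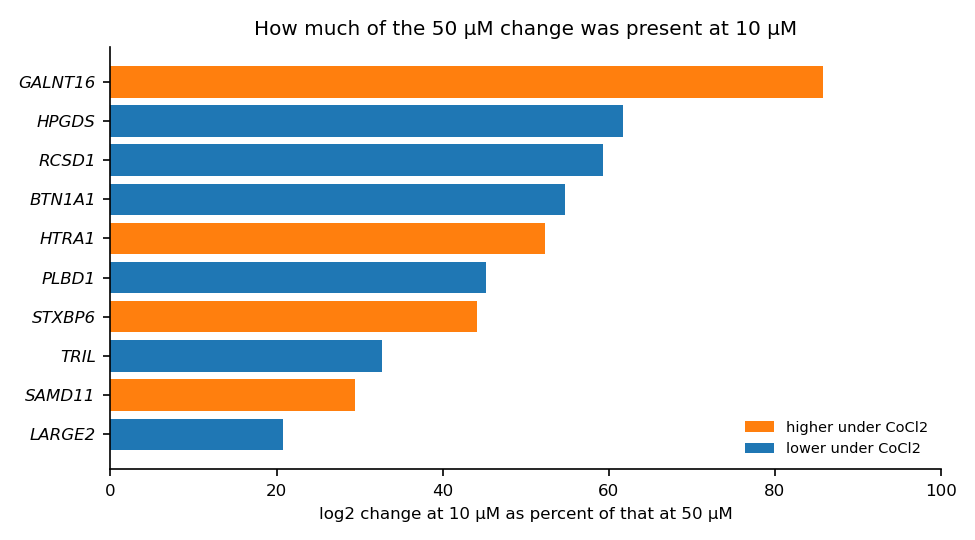
Horizontal bars give the log2 change at 10 µM as a percent of the log2 change at 50 µM for each gene, with orange for genes higher and blue for genes lower under CoCl2. LARGE2 is lowest at 20.8% and GALNT16 highest at 85.8%.

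The order of the genes by level changed with the treatment. Per kilobase of exon, TRIL led in H2O at 9.40 ± 0.306 CPM per kb and STXBP6 was last at 0.00471 ± 0.00218. PLBD1, BTN1A1 and HPGDS followed TRIL at 0.908 ± 0.128, 0.864 ± 0.0143 and 0.854 ± 0.0930 CPM per kb and overlapped with their neighbours in that order. At 50 µM SAMD11 was at 1.21 ± 0.159 CPM per kb and TRIL at 1.20 ± 0.0416, and their libraries overlapped. HTRA1 came next at 1.07 ± 0.124 CPM per kb, and LARGE2 was last at 0.0235 ± 0.00448.

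The knockout comparison asked whether the libraries labelled TET2KO differed from WT in the same genes. At an adjusted p under 0.05 (edgeR quasi-likelihood, Benjamini-Hochberg over 14061 genes), 3 of the 10 differed from WT in TET2KO_1, 2 in TET2KO_2 and 4 in TET2KO_3. Over all genes the shares called were 17.5%, 26.3% and 18.9%. The 3 knockouts differed from each other in 5 of the 10 genes, against 37.6% of all genes. The median size of the log2 change was 0.54, 0.48 and 0.48 for the 10 genes in the 3 comparisons, and 0.10, 0.13 and 0.11 for all genes. These medians were not matched for level. Few counts make the size of a change larger by noise, and STXBP6 had 8 to 24 per library, LARGE2 12 to 40 and HPGDS 0 to 16. The comparisons share the WT libraries.

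**Figure D3:**
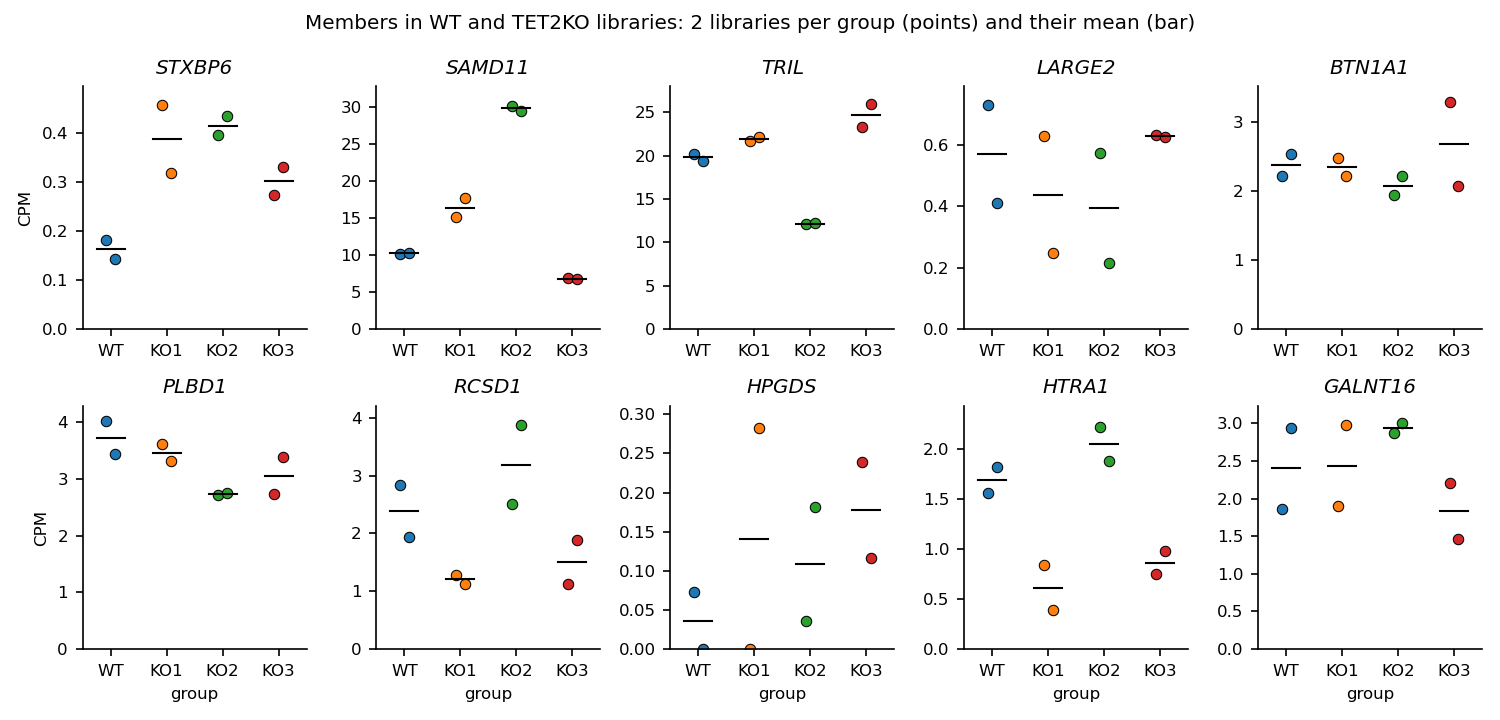
Level of each gene in CPM (linear axis from 0, a scale of its own in each panel) in WT and in TET2KO_1, TET2KO_2 and TET2KO_3 (KO1 to KO3), with 1 point per library and a bar at the mean of the 2 libraries. SAMD11 is highest and TRIL lowest in TET2KO_2, while replicates lie far apart for HPGDS and, outside TET2KO_3, for LARGE2.

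SAMD11 was called in all 3 knockouts, but not in 1 direction. WT had 10.2 and 10.3 CPM, TET2KO_1 15.1 and 17.7, TET2KO_2 30.1 and 29.5, and TET2KO_3 6.90 and 6.75 CPM. No 2 groups overlapped. Against WT it rose in TET2KO_1, with a log2 fold change of 0.68 (SE 0.10, edgeR adjusted p = 4.21e-09), and in TET2KO_2, with 1.54 (SE 0.09, edgeR adjusted p = 5.87e-41). It fell in TET2KO_3, with a log2 fold change of -0.59 (SE 0.12, edgeR adjusted p = 5.35e-05). The range over the knockouts was 2.13 on the log2 scale (edgeR F-test among the knockouts, adjusted p = 4.46e-54). The overlapping gene NOC2L varied less, from 183 CPM in TET2KO_3 through 188 in WT and 191 in TET2KO_1 to 201 CPM in TET2KO_2.

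TRIL moved the other way in TET2KO_2. It had 20.2 and 19.4 CPM in WT, 21.7 and 22.2 in TET2KO_1, 12.1 and 12.2 in TET2KO_2, and 23.3 and 26.0 CPM in TET2KO_3. TET2KO_2 lay below every other library. The log2 fold change there was -0.70 (SE 0.09, edgeR adjusted p = 2.57e-11). TRIL rose in TET2KO_3 by a log2 fold change of 0.31 (SE 0.08, edgeR adjusted p = 0.00146), a call that was lost without the second TET2KO_3 library (0.24, edgeR adjusted p = 0.0708). The knockouts differed from each other by up to 1.01 on the log2 scale (edgeR adjusted p = 3.64e-23).

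HTRA1 was lower in TET2KO_1 and TET2KO_3. It had 1.56 and 1.82 CPM in WT, 0.837 and 0.388 in TET2KO_1, 2.22 and 1.88 in TET2KO_2, and 0.752 and 0.975 CPM in TET2KO_3. The TET2KO_1 and TET2KO_3 libraries lay below all libraries of WT and TET2KO_2. The log2 fold change was -1.48 (SE 0.34, edgeR adjusted p = 0.00029) in TET2KO_1 and -0.98 (SE 0.31, edgeR adjusted p = 0.0129) in TET2KO_3. The TET2KO_1 value was -2.12 without its first library, and its call was lost without its second (-1.01, edgeR adjusted p = 0.0891). That of TET2KO_3 was lost without the second WT library (-0.87, edgeR adjusted p = 0.111) or the first TET2KO_3 library (-0.79, edgeR adjusted p = 0.195). In TET2KO_2 the log2 fold change was 0.28 (SE 0.25, edgeR adjusted p = 0.450), and the knockouts differed among themselves by up to 1.76 (edgeR adjusted p = 9.8e-07). The 6 endothelial markers, which went the other way from HTRA1 under CoCl2, moved with it in part here. Their summed level was 11.8 to 12.2 CPM in WT, 1.69 to 2.07 in TET2KO_1, 3.96 to 4.99 in TET2KO_2 and 2.53 to 3.31 CPM in TET2KO_3, with none at 0 in both libraries of a group. The 12 mesenchymal markers summed to 1761 to 1771 CPM in WT, 1353 to 1401 in TET2KO_1, 1462 to 1487 in TET2KO_2 and 1261 to 1289 CPM in TET2KO_3. The part of either list in the HTRA1 result was not tested.

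RCSD1 had the same order of groups as HTRA1. WT had 2.84 and 1.94 CPM, TET2KO_1 1.29 and 1.13, TET2KO_2 2.51 and 3.87, and TET2KO_3 1.13 and 1.89 CPM. It was lower in TET2KO_1, with a log2 fold change of -0.98 (SE 0.27, edgeR adjusted p = 0.00371). Without the first WT library this became -0.68 (edgeR adjusted p = 0.197), and without the second TET2KO_1 library -0.88 (edgeR adjusted p = 0.0885). The TET2KO_3 value of -0.68 (SE 0.25, edgeR adjusted p = 0.0437) was at the edge of the threshold and was lost with DESeq2 (adjusted p = 0.153). It was -0.39 without the first WT library (edgeR adjusted p = 0.513) and -0.33 without the first TET2KO_3 library (edgeR adjusted p = 0.577). The call also failed without either TET2KO_1 library, with an unchanged log2 fold change and edgeR adjusted p of 0.0525 and 0.052. In TET2KO_2 the log2 fold change was 0.42 (SE 0.21, edgeR adjusted p = 0.137), or 0.70 without its first library (edgeR adjusted p = 0.0295). The difference among the knockouts reached 1.40 on the log2 scale (edgeR adjusted p = 4.27e-07).

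GALNT16 passed the test against WT in no knockout (edgeR adjusted p = 0.954, 0.351 and 0.306). Among the knockouts it was at the threshold, with a range of 0.66 on the log2 scale (edgeR adjusted p = 0.0457). Its levels were 1.86 and 2.94 CPM in WT, 1.90 and 2.97 in TET2KO_1, 2.87 and 3.00 in TET2KO_2, and 2.20 and 1.46 CPM in TET2KO_3. The WT libraries covered nearly the whole range of the others. With DESeq2 the adjusted p was 0.175. Without the first TET2KO_2 library it was 0.112, without the second 0.146, and without the second TET2KO_3 library 0.389, all by edgeR.

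STXBP6 did not pass the test in any knockout, although all 6 TET2KO libraries lay above both WT libraries. WT had 0.182 and 0.143 CPM, TET2KO_1 0.456 and 0.318, TET2KO_2 0.395 and 0.434, and TET2KO_3 0.273 and 0.331 CPM. The counts behind these values were 8 to 24 per library. The log2 fold changes were 1.23 (SE 0.66, edgeR adjusted p = 0.203), 1.34 (SE 0.64, edgeR adjusted p = 0.115) and 0.88 (SE 0.70, edgeR adjusted p = 0.427). In 1 fit of all 14 libraries the TET2KO_2 value passed (edgeR adjusted p = 0.0396).

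The remaining 4 genes passed no test in batch 2. PLBD1 had 4.02 and 3.44 CPM in WT and 2.71 and 2.75 in TET2KO_2, where its log2 fold change of -0.45 (SE 0.19) had an edgeR adjusted p of 0.0699. That value was 0.0241 in 1 fit of all 14 libraries. BTN1A1 stayed between 1.94 and 3.28 CPM in all 8 libraries, and the log2 fold changes were -0.02, -0.20 and 0.19 with edgeR adjusted p-values of 0.967, 0.580 and 0.612. LARGE2 replicates lay far apart in WT (0.728 and 0.410 CPM), TET2KO_1 (0.627 and 0.247 CPM) and TET2KO_2 (0.574 and 0.217 CPM). They were close in TET2KO_3, at 0.632 and 0.624 CPM. The edgeR adjusted p-values of LARGE2 were 0.646, 0.481 and 0.870. HPGDS was close to undetected in batch 2, with 4 and 0 counts in WT, 0 and 16 in TET2KO_1, 2 and 10 in TET2KO_2, and 14 and 6 in TET2KO_3. It passed the low-count filter of batch 2 only through TET2KO libraries. At this depth a difference of HPGDS between those groups was not detectable (edgeR adjusted p = 0.291, 0.425 and 0.166).

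**Figure D4:**
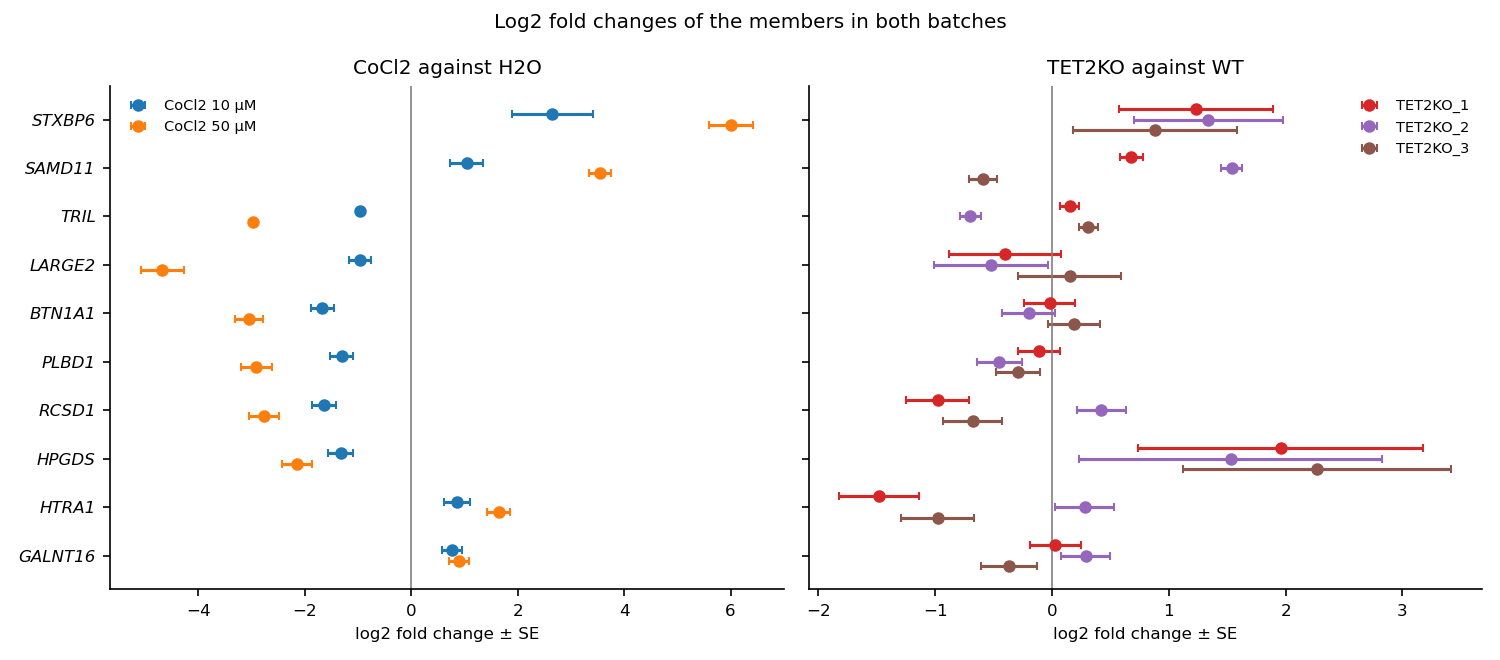
Log2 fold change of each gene (points) with its SE (bars), for 10 and 50 µM CoCl2 against H2O on the left and for the 3 TET2KO groups against WT on the right, on x axes of different span. The CoCl2 points of a gene lie on 1 side of 0. The knockout points lie on both sides for every gene but STXBP6, PLBD1 and HPGDS, and the HPGDS values on the right rest on few counts.

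The signs of the knockout changes were set beside those at 50 µM, which come from other libraries. In TET2KO_1, 7 of the 10 genes had the sign they had at 50 µM, in TET2KO_2 8, and in TET2KO_3 3. Over the 13373 genes tested in both batches the shares were 52.64%, 60.05% and 49.41%. Several signs of the 10 genes changed when 1 library was left out. This held for LARGE2 and GALNT16 in all 3 knockouts and for BTN1A1 in TET2KO_1 and TET2KO_3. It also held for PLBD1 in TET2KO_1 and for HPGDS in TET2KO_1 and TET2KO_2. Of the genes of the 10 that were called, the sign was that of 50 µM for 2 of 3 in TET2KO_1, for both SAMD11 and TRIL in TET2KO_2, and for 1 of 4 in TET2KO_3, where RCSD1 was lower as at 50 µM. Over all genes called at 50 µM and in that knockout, the share with the same sign was 56.83% in TET2KO_1, 75.88% in TET2KO_2 and 47.52% in TET2KO_3. Other lists also stood apart in TET2KO_2, where the adrenergic markers summed to 6205 to 6294 CPM against 8081 to 8269 CPM in WT. Their part in these counts was not tested.

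The 2 untreated controls differed widely for some of the genes, and the batch and the culture cannot be told apart there. With all 14 libraries scaled together, SAMD11 was 0.418 ± 0.0733 CPM in H2O and 10.5 ± 0.0589 CPM in WT, so untreated WT exceeded even the 50 µM libraries at 4.87 ± 0.650 CPM. HPGDS was 1.74 ± 0.190 CPM in H2O and 0.0373 ± 0.0527 in WT, below its level at 50 µM of 0.386 ± 0.0662 CPM. TRIL was 45.2 ± 1.48 and 20.3 ± 0.614 CPM, and LARGE2 1.93 ± 0.173 and 0.582 ± 0.231 CPM. BTN1A1 was closest, at 2.42 ± 0.0395 and 2.43 ± 0.223 CPM. These levels are set side by side without a test.

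Relatives and binding partners of the 10 genes were listed from known families and complexes, 93 genes in all, of which 75 could be tested in batch 1. At 50 µM 16 of the 75 were higher and 23 lower, or 52.0%, with 30.4% of all genes higher and 31.1% lower. At 10 µM 6 were higher and 13 lower, beside 11.6% and 11.1% of all genes. The excess of lower calls depended on the settings. It was kept with DESeq2 size factors in edgeR (6 higher and 13 lower) and with edgeR's legacy quasi-likelihood (6 and 13). It was also kept with a replicate block (6 and 11), with no lower limit on dispersion (6 and 8), and without either 50 µM library. It was not kept by DESeq2 (4 higher and 0 lower), in 1 fit of all 14 libraries (1 and 0) or without a filter on low counts (6 and 6). It was 6 and 5 without the first H2O library, 4 and 5 without the second, 7 and 6 without the first 10 µM library and 5 and 5 without the second. The median log2 change of the relatives at 50 µM was -0.03, and the median of all genes was 0.00. Of the 75, 5 changed at least 2-fold and passed the test at 50 µM, or 6.67%, beside 4.66% of all genes.

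**Figure D5:**
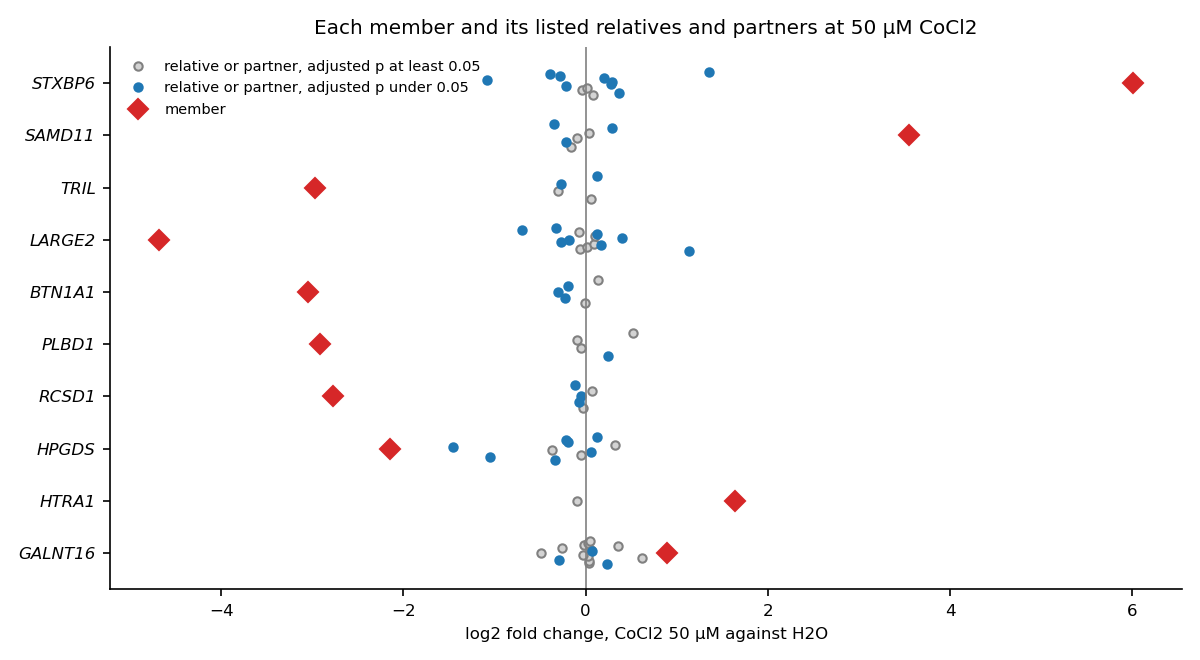
Log2 fold change at 50 µM CoCl2 against H2O (x axis) for each gene of the 10 (red diamonds) and for its listed relatives and partners (circles, blue where the edgeR adjusted p was under 0.05, grey otherwise). The diamonds lie between -4.68 and 6.01, a distance from 0 that is fixed by their choice for large changes under CoCl2.

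The relatives of LARGE2 that were listed act on the sugar chain of alpha-dystroglycan. This list of 13 tested genes gave 4 higher and 4 lower at 50 µM, with a median log2 change of 0.02.

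In the prostaglandin and glutathione transferase list of HPGDS, 10 of 13 genes were tested, and 5 were lower and 2 higher at 50 µM. PTGIS, the prostacyclin synthase, had 0.787 ± 0.0285 CPM in H2O and 0.288 ± 0.0906 CPM at 50 µM, with a log2 fold change of -1.46 (SE 0.37, edgeR adjusted p = 0.00033). PTGES, an inducible prostaglandin E synthase, also fell, with 3.03 ± 0.313 and 1.45 ± 0.242 CPM and a log2 fold change of -1.05 (SE 0.18, edgeR adjusted p = 7.49e-08). The more abundant PTGES3 was higher by only 0.06 (SE 0.02, edgeR adjusted p = 0.000674). PTGS1, the constitutive cyclooxygenase that supplies prostaglandin H2, had a log2 fold change of -0.34 at 50 µM (SE 0.10, edgeR adjusted p = 0.00224), a call that was lost with DESeq2 (adjusted p = 0.0581). In batch 2 it had 6.33 and 6.14 CPM in WT, 3.10 and 3.35 in TET2KO_1, 12.1 and 9.86 in TET2KO_2, and 3.18 and 2.94 CPM in TET2KO_3. All 3 differences passed the test, with log2 fold changes of -0.95 (edgeR adjusted p = 9.53e-07), 0.81 (edgeR adjusted p = 7.49e-09) and -1.02 (edgeR adjusted p = 1.35e-07).

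The syntaxin and SNARE list of STXBP6 held 12 tested genes, 5 higher and 4 lower at 50 µM. STXBP5, the syntaxin-binding tomosyn, had the smallest adjusted p-value of all relatives and fell by 0.39 on the log2 scale (SE 0.02, edgeR adjusted p = 4.5e-38). STXBP5L and STXBP2 moved at least 2-fold but were near the detection limit. STXBP5L had 0.127 ± 0.0730 CPM in H2O and 0.328 ± 0.0111 CPM at 50 µM (log2 fold change 1.35, SE 0.56, edgeR adjusted p = 0.0287). STXBP2 had 0.444 ± 0.0856 and 0.212 ± 0.0623 CPM (-1.08, SE 0.47, edgeR adjusted p = 0.0372). Neither passed with DESeq2, at adjusted p = 0.199 and 0.206, and each was lost without the second H2O library or either 50 µM library, with edgeR adjusted p-values of 0.0543 to 0.289. STXBP5L was higher in TET2KO_2 by 1.14 (SE 0.40, edgeR adjusted p = 0.0233), a call lost with DESeq2 (adjusted p = 0.0885), without either WT library (edgeR adjusted p = 0.184 and 0.0513) or without the second TET2KO_2 library (edgeR adjusted p = 0.173).

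Partners of the other genes follow. TLR4, the receptor that TRIL assists, was 36.8 ± 0.536 CPM in H2O and 38.3 ± 0.972 CPM at 50 µM, with a log2 fold change of 0.06 (SE 0.04, edgeR adjusted p = 0.225). In batch 2 TLR4 was lower in TET2KO_1 (-0.70, edgeR adjusted p = 6.47e-13) and TET2KO_3 (-0.87, edgeR adjusted p = 4.26e-18), where TRIL had log2 fold changes of 0.15 and 0.31. HTRA2, the mitochondrial relative of HTRA1 and the one tested of its 3 relatives, had a log2 fold change of -0.09 at 50 µM (SE 0.05, edgeR adjusted p = 0.122). BTN2A1 was at -0.01 (SE 0.05, edgeR adjusted p = 0.925), PLBD2 rose by 0.25 (SE 0.04, edgeR adjusted p = 3.62e-10) and CAPZB, a subunit of the capping protein that RCSD1 binds, fell by 0.05 (SE 0.02, edgeR adjusted p = 0.0304). Of the 15 O-glycan genes tested beside GALNT16, 2 were higher and 1 was lower at 50 µM, and all 3 changes were under 2-fold. The 15 genes include C1GALT1 and C1GALT1C1, which act in the formation of core 1.

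The genomic neighbours of the 10 genes were examined next. Of the 20 nearest genes, 1 on each side of each gene, 15 were tested in batch 1, and 4 were higher and 6 lower at 50 µM, or 66.7%, near the share of all genes called. None changed 2-fold, and the median size of their log2 change was 0.23 beside 0.17 for all genes. The largest were those of CREB5 beside TRIL, which rose by 0.69 (edgeR adjusted p = 4.8e-30), PDLIM5 beside HPGDS, which fell by 0.60 (edgeR adjusted p = 1.23e-53), and CREG1 beside RCSD1, which rose by 0.39 (edgeR adjusted p = 1.17e-30). PHF21A ends 227 bases from LARGE2 and had a log2 fold change of 0.06 (edgeR adjusted p = 0.0414). ATF7IP lies 726 bases from PLBD1 on the opposite strand and fell by 0.23 (edgeR adjusted p = 2.74e-18). NOC2L, which overlaps SAMD11, rose by 0.07 (edgeR adjusted p = 0.0228). ARMS2 and DMBT1, on either side of HTRA1, were at 0 in H2O, with DMBT1 at 0.0140 CPM at 50 µM.

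For each gene the 2 genes with the most similar pattern were found by Pearson's r of log2 CPM over the 14 libraries, centred within each batch, among 2125 other genes that varied at least 2-fold. The libraries of a group share treatment and depth, so r is a description. SAMD11 was most similar to GPR50 and C14orf132 (both r = 0.99). GPR50 had 9.66 CPM in H2O and 33.1 at 50 µM, and 42.1, 48.6, 83.6 and 31.3 CPM in WT and the 3 knockouts, the group order of SAMD11. TRIL was most similar to EGR1 (r = 0.99), which had 207 CPM in H2O and 60.2 at 50 µM, and 109, 105, 67.1 and 119 CPM in batch 2, and to PIEZO2 (r = 0.98). STXBP6 was nearest to C19orf57 (r = 0.99) and ID2 (r = 0.96). HTRA1 was nearest to MYCT1 (r = 0.94), at 3.80 CPM in WT and 0.892, 4.89 and 1.01 CPM in the knockouts, and to PLCL1 (r = 0.93). HTATIP2 was among the nearest genes of both BTN1A1 (r = 0.95, after ADPRH at 0.95) and PLBD1 (r = 0.96, before RAB38 at 0.96). LARGE2 was nearest to PABPC4L (r = 0.95) and FAM184B (r = 0.94), and RCSD1 to TNR (r = 0.93) and LRRK2 (r = 0.91). The lowest values were those of HPGDS, with GFAP and HVCN1 (both r = 0.84), and of GALNT16, with STAG3 (r = 0.84) and ENKUR (r = 0.78).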

How the data were processed

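Polyadenylated RNA of 14 SK-N-BE2 libraries was examined. The authors deposited unnormalised counts for each gene symbol. Per the file headers these came from featureCounts (version 1.5.3 for batch 1, 2.0.5 for batch 2) on GENCODE 33 protein-coding exons, GRCh38, ignoring strand. The submitters' processing notes also name Trimmomatic 0.36, STAR 2.6.1d and Subread 1.5.3. Among counts of 1 to 10, 39.0% to 42.3% were even in batch 1 and 77.3% to 80.5% in batch 2, where pairs were mostly counted as 2 reads.

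Counts were fitted per batch in R 4.3.3 with edgeR 4.0.16 (filterByExpr with a minimum count of 10, TMM, quasi-likelihood, dispersion of at least 0.0001001), over 13636 and 14061 genes, with calls at an adjusted p (Benjamini-Hochberg) under 0.05. The fitting steps were tested on simulated data, with changes placed only in well-counted genes. That test does not cover genes with few counts, such as HPGDS and STXBP6 in batch 2, nor pairs counted as 2 reads. Alternatives were DESeq2 1.42.0, other scaling, filters and fits, and each library left out. Similar patterns used log2(CPM + 0.1). The members and the lists of relatives and markers were chosen with earlier results of these data known. The named genes were all 10 members, relatives called with at least a 2-fold change, the 2 relatives with the smallest adjusted p at 50 µM, the closest relatives, overlapping or adjacent genes, TET2 and 2 genes of similar pattern for each member. The overlapping or adjacent genes named, and TLR4, were picked after their values were seen. Some relatives that the rule names are not reported here. Replicates differed by more than counting noise and were counted separately.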

Additional observations from a re-analysis of the deposited data

Results flagged for a closer look

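The 3 groups labelled TET2KO differed from each other in 5 of the 10 genes, beside 37.6% of all genes, by edgeR's F-test of that difference at an adjusted p under 0.05. The span of their log2 fold changes against WT was 2.13 for SAMD11, which was higher in TET2KO_1 and TET2KO_2 and lower in TET2KO_3. It was 1.76 for HTRA1 and 1.40 for RCSD1, both lowest in TET2KO_1 and highest in TET2KO_2, and 1.01 for TRIL, lowest in TET2KO_2. For GALNT16 it was 0.66, at the threshold.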

How the results depend on the processing

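Same-numbered replicates shared only a number, since their deviations correlated between -0.046 and 0.023. With the replicate block, 3, 2, 3 and 4 of the 10 genes were called in TET2KO_1, TET2KO_2, TET2KO_3 and among the knockouts, against 3, 2, 4 and 5 without it, and the calls of RCSD1 in TET2KO_3 (adjusted p = 0.0585) and of GALNT16 among the knockouts (0.0605) were lost. In 1 fit of all 14 libraries 4 genes were called in TET2KO_2, and all genes called numbered 796 at 10 µM and 4674 between the doses, against 3098 and 7198. DESeq2 called 1121 genes at 10 µM. Relatives called at 10 µM were 4 with DESeq2, 12 without a filter and 1 in the fit of all 14 libraries, against 19. With 1 library left out, members called were 1 to 3, 2 to 3, 2 to 4 and 4 to 5 in the same order of comparisons. The lowest count for TET2KO_1 came without its second library and that for TET2KO_3 without its first. All genes called were then 1860 to 3291 at 10 µM, 7331 to 8370 at 50 µM, 1375 to 2586, 2406 to 3766 and 1568 to 2615 in the 3 knockouts, and 3754 to 5363 among them, and relatives called at 10 µM were 9 to 21. Log2 fold changes of genes that passed no test changed sign when 1 library was left out, for LARGE2 (-1.19 to 0.15, -1.38 to 0.02 and -0.21 to 0.61 in TET2KO_1, TET2KO_2 and TET2KO_3), BTN1A1 (-0.11 to 0.08 in TET2KO_1, -0.20 to 0.47 in TET2KO_3), PLBD1 (-0.22 to 0.01 in TET2KO_1), HPGDS (-4.07 to 6.04 in TET2KO_1, -0.01 to 5.60 in TET2KO_2), GALNT16 (-0.34 to 0.40, -0.01 to 0.65 and -0.71 to 0.00 in the 3 knockouts) and GALNT16 between the doses (-0.14 to 0.36). Of 210 values of the 10 genes under CoCl2 with another setting, all kept their direction and moved by less than the spread between replicates. Those settings refitted the same libraries, where an estimate can hardly move, so they are no check on the changes. With 1 library left out 2 values were reversed, those of GALNT16 between the doses. Depth limits HPGDS and STXBP6 most, with counts of 0 to 24 per library in batch 2.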
